A study of Mus musculus with 8 samples.

Results

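The genes for IGF-binding proteins were chosen by symbol, as the rows Igfbp2, Igfbp3, Igfbp4, Igfbp5, Igfbp6 and Igfbp7, which are 6 of the 32285 counted features. The rule uses no measured value, though the members were chosen with earlier results of these data known. Brain sections of mice were read on a slide of capture spots 55 µm wide, each of which counts transcripts as unique molecular identifiers (UMIs) and can hold several cells of different types. All mice were p16-3MR mice, in which the p16 promoter drives a fusion protein with a red fluorescent part and a viral thymidine kinase, labelled male and 9 to 10 months old. Each of the 4 groups had 2 sections. PTX mice received paclitaxel, a chemotherapy drug that binds microtubules, at 5 mg/kg/day i.p. in 2 cycles of 5 days set 7 days apart. PTX+GCV mice were then given ganciclovir at 25 mg/kg/day, which the thymidine kinase turns toxic in cells that make it. PTX+ABT263 mice were given ABT263 (navitoclax), an inhibitor of BCL-2 family proteins, at 1.5 mg/kg/day in place of it, and both drugs were given for 5 days in 2 cycles 2 weeks apart. Control mice received the vehicles only, DMSO and saline. Brains were perfused with PBS and collected 6 months after PTX, cut coronally at 10 µm, and the labels put all 8 sections in 1 batch.

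IGF-binding proteins are secreted proteins that hold the growth factors IGF1 and IGF2 with high affinity, carry them in extracellular fluid and keep them from the IGF1 receptor until a protease cuts the binding protein. Several also act without IGF, on integrins and matrix. In the brain the family is known for expression in choroid plexus, meninges, vessels and subsets of neurons and glia. Several members are also among the proteins that senescent cells secrete in culture, and the study asked whether PTX, given as chemotherapy, induces senescence, and used GCV and ABT263 to remove senescent cells.

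Of 22096 spots under tissue 21328 were kept, with 19870666 to 42886400 UMIs a section and a median of 7583 to 15715.5 UMIs a spot. The sections labelled PTX+ABT263 went against the label male. Xist, transcribed from the inactive X chromosome, had 754 and 695 UMIs in the sections labelled PTX+ABT263, against 0 to 1 elsewhere. Ddx3y, a Y-linked gene, had 17 and 0 UMIs in the sections labelled PTX+ABT263, against 711 to 1350 elsewhere. Sex or strain and this treatment cannot be told apart. It is not stated whether the pair of sections in a group is from separate mice. P-values thus rest on the spread between sections, which may be technical and is pooled in part over genes. In tissue sections, fewer cells of a type and less RNA per cell cannot be told apart.

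All 6 members were counted in each of the 8 sections. Over the kept spots Igfbp2 had 11779 UMIs and was seen in 27.9% of spots, Igfbp4 had 17058 in 34.9%, and Igfbp5 had 18415 in 47.8%. Igfbp6 had 19581 UMIs in 36.3% of spots and Igfbp7 had 10079 in 30.6%. Igfbp3 was the sparsest, with 2361 UMIs in 9.41% of spots, and 1743 of its 2008 positive spots held 1 UMI. The highest single spot held 82 UMIs of Igfbp2, against 7 of Igfbp3. Levels are given below as CPM, the UMIs of a gene scaled to 1000000 UMIs of the same spots.

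Areas were defined without any Igfbp gene. Spots of the meninges (306), choroid plexus (161) and vessels (173) are those in which at least 10 of 10000 UMIs, and at least 5 UMIs, came from a list of markers of fibroblasts of the meninges, of choroid plexus epithelium or of vascular smooth muscle. The isocortex (4877 spots) is the union of 2 of 13 spot clusters, called upper and deep here because Lamp5 and Fezf2, genes of upper and deep cortical neurons, were among their leading genes. The meninges and vessels shared 70 spots. Near the limit, at 8 to 12 marker UMIs per 10000, there were 114, 26 and 79 spots for the meninges, choroid plexus and vessels.

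Igfbp2, known as the IGF-binding protein of cerebrospinal fluid, was concentrated in the choroid plexus, which secretes that fluid. The choroid plexus spots held 0.825% of all UMIs and 24.0% of the Igfbp2 UMIs. Igfbp2 was at 1338 and 1366 CPM for PTX, 1295 and 1499 for PTX+GCV, 1195 and 1087 for the sections labelled PTX+ABT263, and 915 and 1531 for Control. Outside the 3 marker areas it was at 25.9 to 37.2, so the lowest choroid plexus section lay far above the highest level outside these areas. The log2 difference from the rest of the same sections was 5.61 (SE 0.10), a 48.9-fold higher level in 8 of 8 sections. By edgeR's quasi-likelihood test with Benjamini-Hochberg adjustment (adjusted p under 0.05), 24.2% of 13987 genes were called higher in the choroid plexus and 32.9% lower. Of the 6 members, 5 were called higher and 1 lower. The test pools the spread over genes, here and in vessels against the rest almost wholly. Its very small p-values therefore do not measure a gene's own spread between sections.

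Igfbp7, a relative of the family that binds IGF weakly and is made by endothelial cells, was the next member high in the choroid plexus. It was at 225 to 322 CPM there, against 27.0 to 38.4 outside the marker areas, a log2 difference of 3.26 (SE 0.11, adjusted p = 1.01e-198). Igfbp4, a substrate of the protease PAPP-A, differed by 1.10 (SE 0.13, adjusted p = 5.72e-17), and Igfbp5, which binds matrix, by 0.55 (SE 0.14, adjusted p = 0.000179). Both were higher in 8 of 8 sections, and the Igfbp5 call was lost at a limit of 20 marker UMIs per 10000 (0.21, adjusted p = 0.241). Igfbp3, the main IGF carrier of blood, was higher by 2.22 (SE 0.24, adjusted p = 1.57e-19) in 7 of 8 sections. It rests on 1 to 28 UMIs a section, 28 and 17 of them in the sections labelled PTX+ABT263 and 1 each in PTX+GCV 1 and Control 1. Igfbp6, which prefers IGF2 over IGF1, was the member called lower, at -2.48 (SE 0.24, adjusted p = 5.41e-24), with 1 to 5 UMIs a section in the choroid plexus.

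The promoters of Igfbp2 and Igfbp7 are printed because the levels of these genes over 26 fine clusters were the most alike of all pairs of members (Pearson r = 0.813, a description with no test, since the clusters share libraries). Each is 300 bases, from 250 before to 50 after the RefSeq start on GRCm38.p6, at chr1:72824230-72824529 (plus strand) for Igfbp2 and chr5:77407996-77408295 (minus strand) for Igfbp7. Capitals mark matches, on either strand, to the TATA box TATAAA or the GC box GGGCGG or the CCAAT box or the E-box CACGTG.
Igfbp2: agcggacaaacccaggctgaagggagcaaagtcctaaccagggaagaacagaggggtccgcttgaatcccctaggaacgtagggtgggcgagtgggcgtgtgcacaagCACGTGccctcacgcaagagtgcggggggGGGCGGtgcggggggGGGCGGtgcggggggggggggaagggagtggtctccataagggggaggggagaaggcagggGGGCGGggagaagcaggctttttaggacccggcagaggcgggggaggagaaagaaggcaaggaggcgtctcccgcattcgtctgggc
Igfbp7: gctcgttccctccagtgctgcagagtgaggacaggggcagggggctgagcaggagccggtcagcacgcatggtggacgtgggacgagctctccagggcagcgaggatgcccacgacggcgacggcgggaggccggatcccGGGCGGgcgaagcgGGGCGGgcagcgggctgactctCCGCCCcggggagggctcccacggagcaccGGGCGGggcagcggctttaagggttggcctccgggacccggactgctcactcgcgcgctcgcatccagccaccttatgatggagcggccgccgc
The GC box was found 3 times for Igfbp2 and 4 times for Igfbp7, and in 35.9% of 27025 promoters of the same length. The E-box was found once, for Igfbp2, and in 7.24% of all promoters. The share of G and C was 67.0% for Igfbp2 and 73.3% for Igfbp7, against a median of 52.7% over all promoters. A match describes the letters only.

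In the meninges all 6 members were called higher than outside the marker areas, where 17.9% of 13964 genes were. Igfbp2 was at 371 and 400.4 CPM with PTX, 544 and 272 with PTX+GCV, 465 and 304 in those labelled PTX+ABT263, and 406 and 407 in Control. The groups overlapped. Its level was 13.9-fold that of the rest, a log2 difference of 3.80 (SE 0.10, adjusted p = 1.31e-45). Igfbp7 differed by 2.60 (SE 0.12, adjusted p = 2.2e-30) at 141 to 250.1 CPM, and Igfbp5 by 1.96 (SE 0.10, adjusted p = 3.92e-27) at 159.6 to 365. Igfbp4 differed by 1.02 (SE 0.13, adjusted p = 2.65e-10). These 4 genes were higher in 8 of 8 sections, and Igfbp6, at 0.70 (SE 0.13, adjusted p = 7.31e-06), in 7 of 8. The Igfbp6 call was lost at a limit of 5 marker UMIs per 10000 (0.19, adjusted p = 0.168). Igfbp3 differed by 0.77 (SE 0.32, adjusted p = 0.0489) on 2 to 7 UMIs a section, and its call was lost on leaving out any 1 of PTX 1, PTX 2, PTX+GCV 1, PTX+ABT263 1, PTX+ABT263 2 or Control 1 (0.65 to 0.80). Without the sections labelled PTX+ABT263, the Igfbp3 difference in the meninges was 0.76 (adjusted p = 0.117), and it was the 1 area call of a member that was lost without them. Choroid plexus markers summed to 1449 CPM in the meningeal spots of PTX+ABT263 1 and 632 in those of PTX+GCV 1, against 41.3 to 181 in the other 6. These 2 sections also had the highest meningeal Igfbp2, and the part of those markers in it was not tested.

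**Figure D1:**
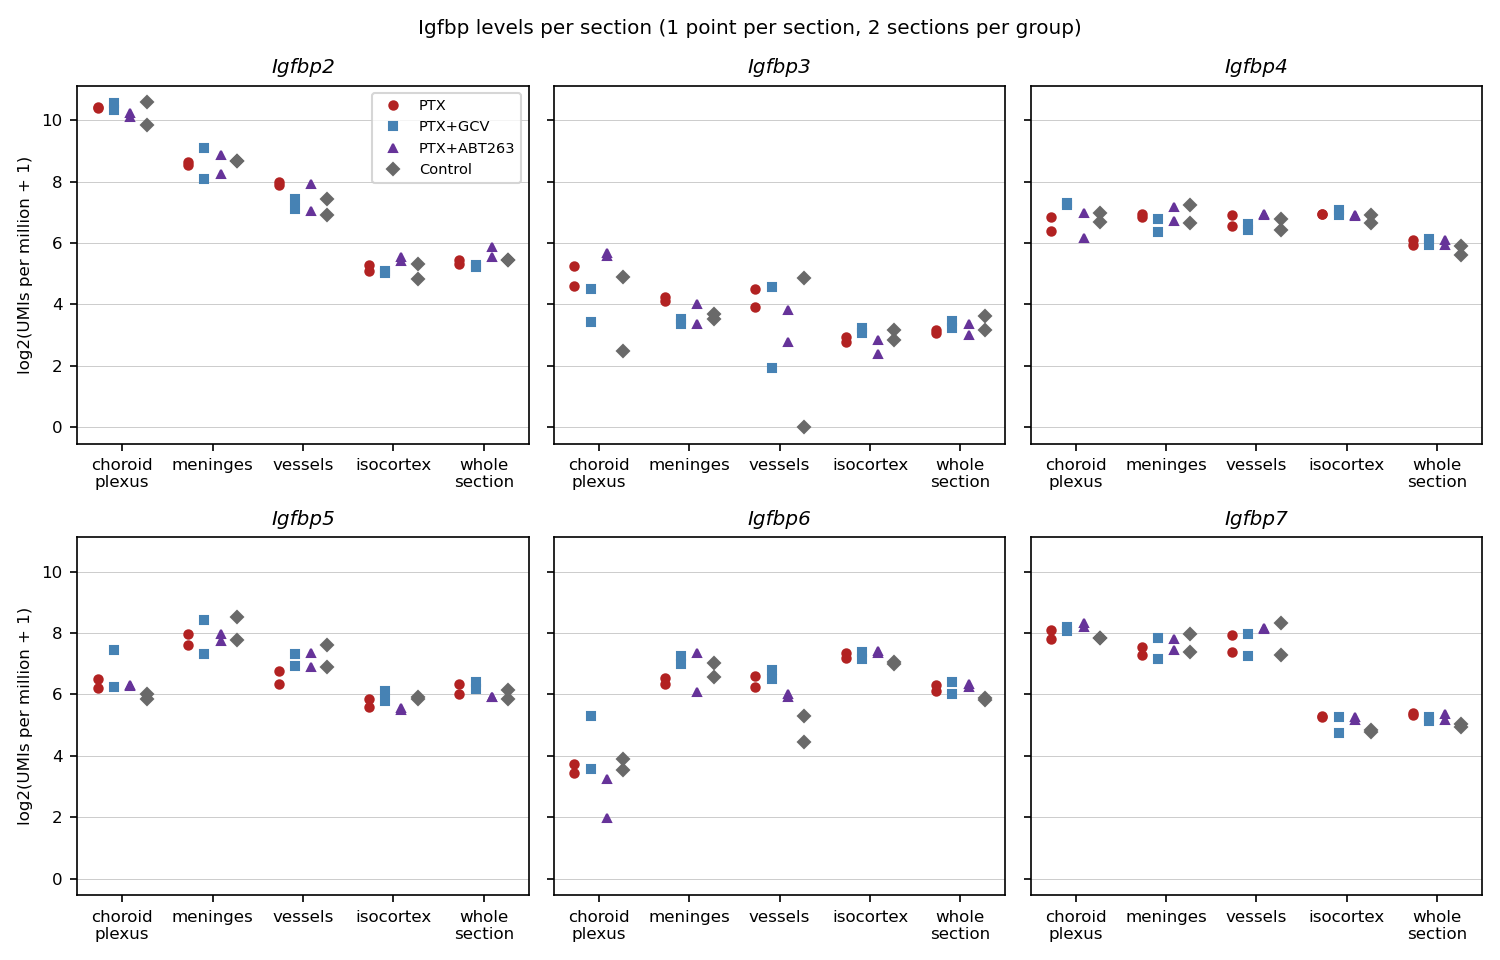
Level of each of the 6 genes as log2(CPM + 1) in the areas and in whole sections, with 1 point for each of the 8 sections, marked by group. Igfbp2 lay between 915 and 1531 CPM in the choroid plexus and between 272 and 544 in the meninges.

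In vessel spots 4 of 6 members were called higher than in the rest, where 9.4% of 13844 genes were. Igfbp7 was at 242 and 164 CPM for PTX, 252 and 153 for PTX+GCV, 277 and 287 for the sections labelled PTX+ABT263, and 318 and 154 for Control. It was higher than the rest in 8 of 8 sections, by 2.73 (SE 0.12, adjusted p = 1.13e-109). Igfbp2 differed by 2.59 (SE 0.13, adjusted p = 3.1e-87), Igfbp5 by 0.93 (SE 0.13, adjusted p = 1.12e-10) and Igfbp4 by 0.71 (SE 0.14, adjusted p = 1.15e-05). Igfbp3, on 0 to 6 UMIs a section, differed by 0.60 (SE 0.38, adjusted p = 0.308) and Igfbp6 by 0.01 (SE 0.15, adjusted p = 0.977), and neither passed. Without the 70 spots that also passed the meningeal limit, a comparison added after the data were seen, the calls of Igfbp2 and Igfbp7 held and those of Igfbp5 (0.42, adjusted p = 0.123) and Igfbp4 (0.07, adjusted p = 0.907) did not.

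The isocortex had another order of the family, with Igfbp6 and Igfbp4 higher and the other 4 members lower than in the other kept spots. Those other spots held almost all spots of the 3 marker areas, which the rest used above left out. Mean levels of Igfbp2 and Igfbp7 were 36.0 and 33.1 CPM in the isocortex. Outside the marker areas, with the isocortex included, they were 30.3 and 32.7, so the lower calls of these 2 genes apply to a rest that holds the marker areas. Of 14576 genes, 32.8% were called higher and 33% lower. The isocortex held 29.0% of all UMIs, 62.4% of those of Igfbp6 and 56.0% of those of Igfbp4. Igfbp6 was at 153 TMM-scaled CPM in the isocortex and 37.3 in other spots, a log2 difference of 2.04 (SE 0.04, adjusted p = 4.53e-19). Igfbp4 was at 120.3 in the isocortex and 37.9 in other spots, a log2 difference of 1.68 (SE 0.04, adjusted p = 9.05e-18). Both were higher in 8 of 8 sections. Igfbp3 differed by -0.49 (SE 0.08, adjusted p = 1.65e-05), Igfbp5 by -0.43 (SE 0.05, adjusted p = 2.07e-07) and Igfbp2 by -0.31 (SE 0.06, adjusted p = 0.000178). Igfbp7 differed by -0.13 (SE 0.05, adjusted p = 0.0278), a call lost on leaving out PTX+GCV 1, PTX+ABT263 1, Control 1 or Control 2 (adjusted p = 0.0518 to 0.0929). The median log2 difference of the 6 members was 1.49 in the meninges, 1.66 in the choroid plexus, 0.82 in vessels and -0.22 in the isocortex, against -0.09, -0.18, -0.09 and 0.00 over all genes tested. The isocortex value was taken against a rest that held the marker areas.

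The promoters of Igfbp4 and Igfbp6 are printed as the second most alike pair over the 26 fine clusters (r = 0.672). They lie at chr11:99040994-99041293 and chr15:102143936-102144235 on the plus strand of GRCm38.p6, with the same motifs in capitals. The Igfbp6 window ends before the gene start of GENCODE M21 at 102144362.
Igfbp4: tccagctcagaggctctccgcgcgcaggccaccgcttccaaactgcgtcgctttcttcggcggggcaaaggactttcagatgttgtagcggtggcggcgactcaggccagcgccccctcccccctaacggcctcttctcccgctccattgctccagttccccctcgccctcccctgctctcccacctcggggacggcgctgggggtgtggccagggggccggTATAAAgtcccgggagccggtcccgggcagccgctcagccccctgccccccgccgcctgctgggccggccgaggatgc
Igfbp6: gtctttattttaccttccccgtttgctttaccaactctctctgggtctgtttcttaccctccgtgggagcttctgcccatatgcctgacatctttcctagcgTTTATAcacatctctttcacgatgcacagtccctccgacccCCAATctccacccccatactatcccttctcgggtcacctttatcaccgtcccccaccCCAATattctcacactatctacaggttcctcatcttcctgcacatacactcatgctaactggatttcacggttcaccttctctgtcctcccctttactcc
The TATA box was found once in each, as TATAAA for Igfbp4 and as TTTATA, on the other strand, for Igfbp6. On either strand it was found in 14.2% of all promoters. The CCAAT box was found 2 times for Igfbp6 and in 37.9% of all promoters. The share of G and C was 71.3% for Igfbp4 and 49.7% for Igfbp6, so this pair differed in base composition.

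**Figure D2:**
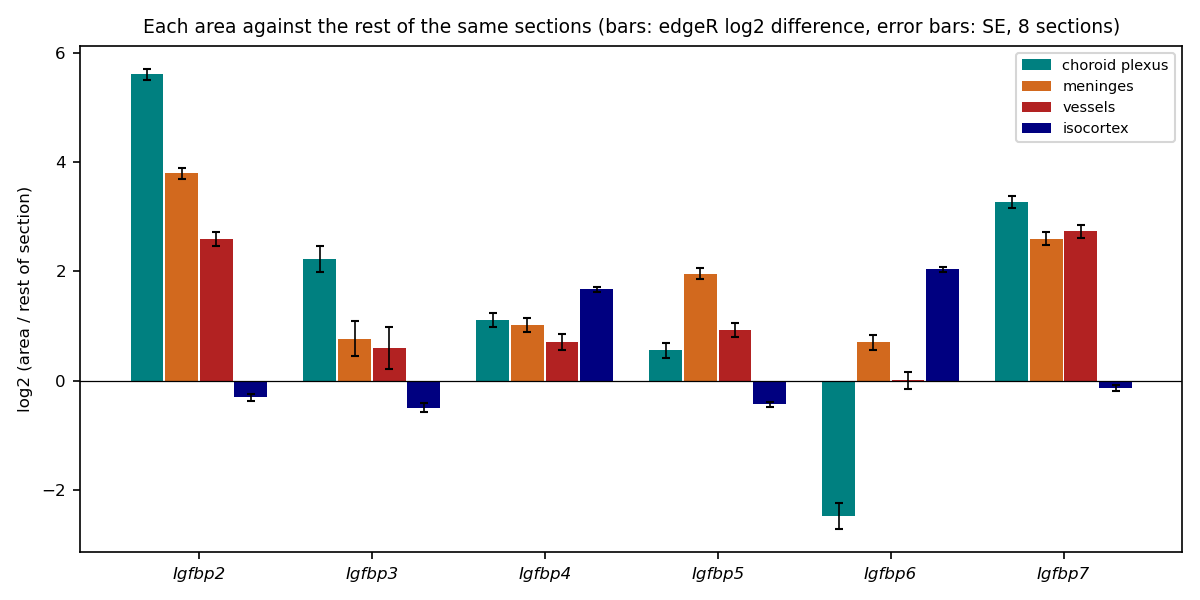
Log2 difference of each gene between an area and the rest of the same sections, with bars of 1 SE, for the meninges, choroid plexus, vessels and isocortex. For the isocortex the rest is all other kept spots, and for the others it leaves out the marker areas. Igfbp2 was 5.61 higher in the choroid plexus and Igfbp6 was 2.04 higher in the isocortex.

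Over the 13 spot clusters, built without the Igfbp genes, the members differed in their order of levels (mean ± SD over 8 sections, described with no test). Igfbp2 was at 1039.6 ± 151 CPM in the choroid plexus cluster (led by Ttr and Ecrg4) and 285 ± 52.8 in the meninges cluster (Myoc, Gh and Fmod), with ranges clear of each other and of the rest. The thalamus cluster (Shox2, Prkcd) followed at 48.6 ± 15.5 and the hypothalamus cluster (Pmch, Hcrt) was last at 9.35 ± 4.49, and from the thalamus down neighbours in the order overlapped. Igfbp7 had the same leading clusters, at 217 ± 36.6 in the choroid plexus cluster and 157 ± 33.8 in the meninges cluster, which overlapped, and 47.8 ± 6.33 in the thalamus.

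Igfbp4 was highest in the deep isocortex cluster, at 161 ± 8.85 CPM and clear of the next. The choroid plexus cluster followed at 97.9 ± 26.5 and the meninges cluster at 97.8 ± 19.5. Igfbp4 was at 84.3 ± 18.7 in the hippocampus, 72.0 ± 13.8 in the upper isocortex and 13.5 ± 4.11 in the thalamus, with the habenula last at 8.36 ± 6.57. Igfbp6 had its highest mean in the upper isocortex, at 169 ± 20.4, followed by the deep isocortex at 134 ± 15.9, with overlapping ranges, and was last in the thalamus at 3.82 ± 2.06. Igfbp5 was highest in the meninges cluster (233 ± 62.8) and the fiber tracts (174 ± 40.7, led by Klk6 and Thbs4), whose ranges overlapped. The thalamus was at 98.8 ± 35.7 for Igfbp5. For Igfbp3 all neighbours in the order overlapped, and its highest mean, 24.0 ± 13.6 in the choroid plexus cluster, rests on 81 UMIs in all.

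The 26 fine clusters split the isocortex further. Igfbp6 was at 228 ± 22.9 CPM in the cluster led by Gm765 and Lamp5 and 108 ± 20.5 in the cluster with Fezf2. Igfbp4 was at 101 ± 17.9 with Lamp5 and 159 ± 13.0 with Fezf2, the opposite order. An unnamed cluster led by Trbc2 had 171 ± 16.2 of Igfbp6 and 173 ± 9.38 of Igfbp4. The highest mean of Igfbp4 was in a hippocampal cluster led by Spink8 and Fibcd1, genes of CA1 neurons, at 192 ± 44.8, with a range that overlapped the next. That cluster was the last of the 26 for Igfbp5 (12.9 ± 5.25) and Igfbp7 (12.9 ± 6.83). Igfbp5 stood at 185 ± 31.6 in a thalamic cluster led by Gbx2 and 187 ± 36.7 in a fiber tract cluster led by Gfap and Mobp, both overlapping the meninges cluster.

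**Figure D3:**
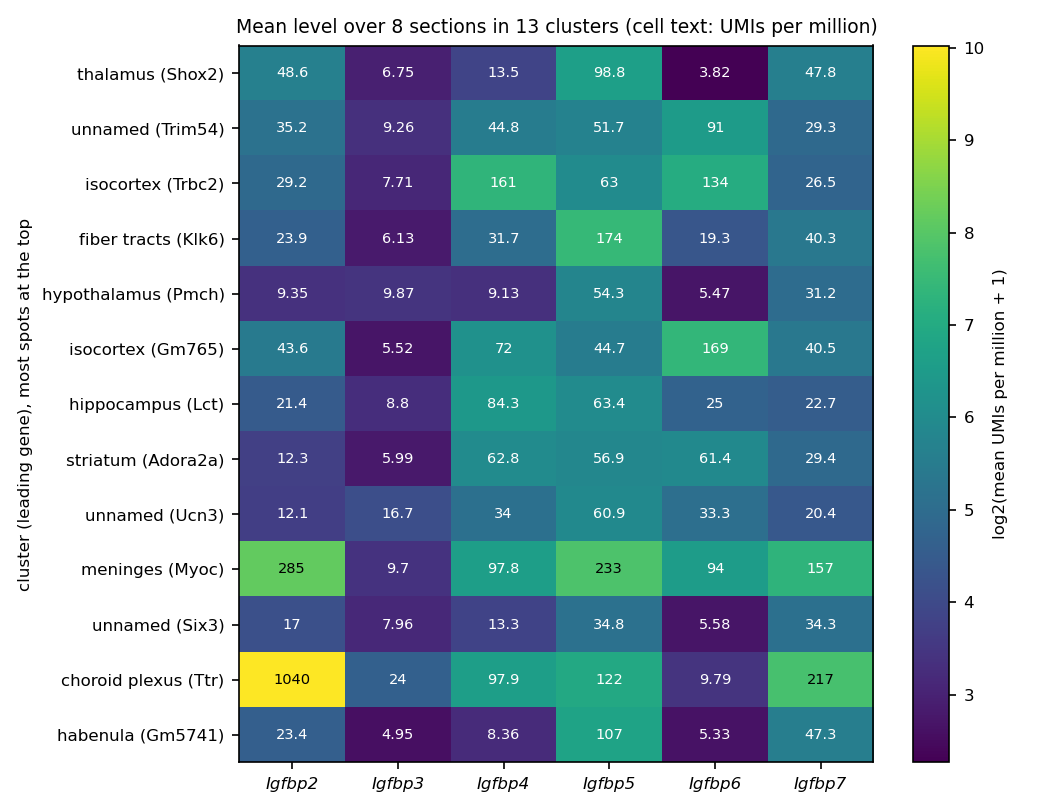
Mean level of each gene over the 8 sections in CPM in the 13 clusters, named by markers or leading genes, with colour on a log2 scale. Igfbp4 peaked in the deep isocortex (161), Igfbp6 in the upper isocortex (169), and Igfbp5 in the meninges (233) and fiber tracts (174).

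Levels by distance from an area are given as values with no test, since neighbouring spots share tissue. Igfbp2 was at 1278 ± 207 CPM in choroid plexus spots, 98.4 ± 37.5 at 1 spot spacing and 39.5 ± 27.8 at 2. Igfbp5 had another profile, with 86.0 ± 36.8 in those spots, 193 ± 86.4 at 1 spacing, 141 ± 63.3 at 2 and 65.7 ± 9.66 beyond 5. Its mean was thus higher beside the choroid plexus than in it. From the meninges, Igfbp5 was at 249 ± 70.9 in the spots and 93.1 ± 13.1 at 1 spacing. From vessels, Igfbp7 was at 231 ± 65.5 in the spots and 43.1 ± 9.69 at 1 spacing.

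**Figure D4:**
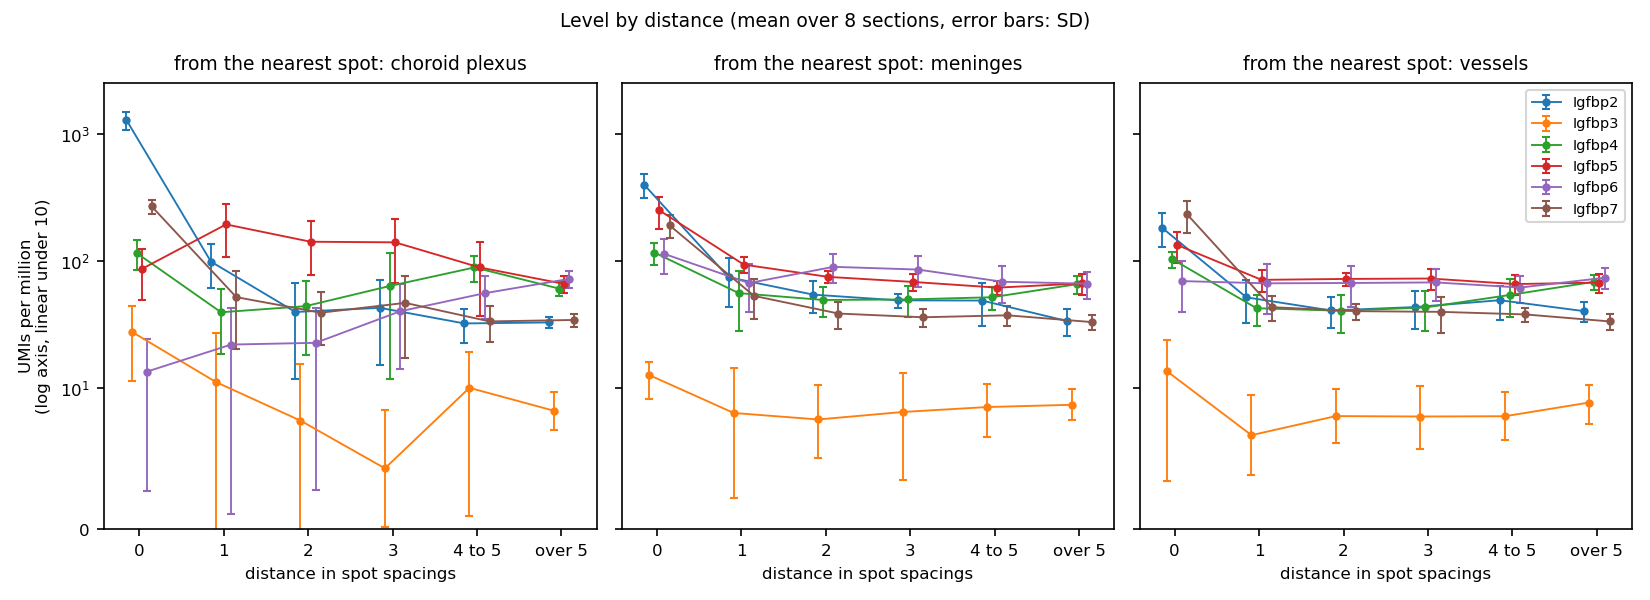
Mean level of each gene in CPM (bars, SD over 8 sections; axis logarithmic above 10) by distance in spot spacings from choroid plexus, meninges and vessel spots. Igfbp5 was at 193 at 1 spacing from the choroid plexus and 86.0 in it.

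The genes most like each member over the 26 fine clusters, among 13041 genes with at least 500 UMIs, differed between members. For Igfbp2 they were Lgals1, Lsr and Sod3 (r = 0.846, 0.843 and 0.836), and for Igfbp7 Slc38a3, Pltp and Tinagl1 (r = 0.938, 0.932 and 0.904). Pltp was also on the list of endothelial markers used here. For Igfbp6 they were Ngef, Kcnh3 and Sertad1 (r = 0.913, 0.905 and 0.902), and for Igfbp4 Prss23, Gm35040 and Cort (r = 0.8, 0.79 and 0.783). For Igfbp5 they were Zfyve21, Gpr146 and Rin2 (r = 0.837, 0.822 and 0.817), and for Igfbp3 Ccdc148, Calr and Polr1a (r = 0.724, 0.699 and 0.694). Igfbp2 and Igfbp5 are neighbours on chromosome 1 (72824503 to 72852474 on the plus strand and 72857932 to 72874884 on the minus strand, GENCODE M21 on mm10) with 5457 bases between them, and their r was 0.321. Igfbp3 (7206086 to 7213923, minus strand) and Igfbp4 (99041244 to 99054392, plus strand) lie far apart on chromosome 11, and Igfbp6 lies on chromosome 15 (102144362 to 102149511, plus strand). Igfbp7 (chromosome 5, 77349240 to 77408041, minus strand) overlaps Polr2b and Gm34648 on the plus strand, and whether counting used strand is not given in the sources used here.

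Groups were compared on UMIs summed over each section, with edgeR over 16673 genes. The log2 differences use edgeR's TMM scale, while the levels printed beside them are plain CPM, so they can depart from each other. None of the 6 members passed in whole sections in the 5 comparisons. The share of all genes called was 0.132% for PTX against Control, 0.024% for PTX+GCV against PTX, 0.138% for the sections labelled PTX+ABT263 against PTX, 0% for PTX+GCV against Control and 0.198% for the sections labelled PTX+ABT263 against Control. At an unadjusted p under 0.05 there were 3, 1, 1, 2 and 4 of the 6 members in the same order, against 13.5%, 10.7%, 11.8%, 10.7% and 10% of all genes. DESeq2 called 0, 0, 1, 0, 1 of the members, against 0.912%, 0.492%, 0.696%, 0.27% and 0.456% of all genes. The median log2 difference of the 6 members was 0.17, -0.02, 0.14, 0.15 and 0.32, against 0.01, 0.00, 0.00, 0.00 and 0.00 over all genes tested. The comparisons share their PTX or Control sections.

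Igfbp7 in whole sections was at 41.6 and 39.3 CPM for PTX, 34.1 and 37.8 for PTX+GCV, 40.5 and 35.1 for the sections labelled PTX+ABT263, and 31.9 and 29.9 for Control. Both Control sections lay below the other 6. The plain CPM means were 40.5 for PTX, 35.9 for PTX+GCV, 37.8 for the sections labelled PTX+ABT263 and 30.9 for Control. On the TMM scale they were 39.6, 34.2, 40.0 and 31.3 in the same order. The log2 difference was 0.34 (SE 0.07, adjusted p = 0.0945) for PTX against Control, -0.21 (SE 0.07, adjusted p = 0.332) for PTX+GCV against PTX and 0.36 (SE 0.07, adjusted p = 0.111) for the sections labelled PTX+ABT263 against Control. Hemoglobin and other red cell genes, a list of 5, summed to 328 and 338 CPM for PTX, 59.3 and 41.9 for PTX+GCV, 109 and 6.48 for the sections labelled PTX+ABT263, and 91.0 and 58.9 for Control, so both PTX sections stood far above the other 6. Summed endothelial markers were at 422 and 449 CPM with PTX, 387 and 446 with PTX+GCV, 387 and 366 in those labelled PTX+ABT263, and 368 and 374 in Control. The part of either list in the Igfbp7 level was not tested.

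Igfbp6 in whole sections was at 68.2 and 78.2 CPM with PTX, 63.6 and 84.7 with PTX+GCV, 75.2 and 79.4 in those labelled PTX+ABT263, and 58.2 and 55.4 in Control. Both Control sections were the lowest here too. The log2 difference was 0.32 (SE 0.11, adjusted p = 0.242) for PTX against Control, 0.30 (SE 0.11, adjusted p = 0.374) for PTX+GCV against Control and 0.51 (SE 0.11, adjusted p = 0.137) for the sections labelled PTX+ABT263 against Control, the last of which passed with DESeq2 (0.51, adjusted p = 0.0029). The isocortex, where Igfbp6 and Igfbp4 are high, held 31.4% and 33.0% of the UMIs for PTX, 26.4% and 29.7% for PTX+GCV, 28.9% and 31.2% for the sections labelled PTX+ABT263, and 25.8% and 22.2% for Control. Igfbp4 was at 67.8 and 60.3 CPM for PTX, 60.7 and 69.0 for PTX+GCV, 59.6 and 66.7 for the sections labelled PTX+ABT263, and 48.2 and 58.9 for Control, again with both Control sections lowest. Its difference for the sections labelled PTX+ABT263 against Control was 0.29 (SE 0.11, adjusted p = 0.428). The part of the isocortex share in these whole section values was not tested.

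Igfbp2 in whole sections was at 38.9 and 42.2 CPM with PTX, 37.8 and 36.6 with PTX+GCV, 57.5 and 45.9 in those labelled PTX+ABT263, and 42.3 and 42.1 in Control. The sections labelled PTX+ABT263 were the highest 2. In plain CPM their mean was 51.7, against 40.6 for PTX, and on the TMM scale it was 54.7, against 39.7. The log2 difference of these sections was 0.46 (SE 0.09, adjusted p = 0.0741) against PTX and 0.35 (SE 0.09, adjusted p = 0.231) against Control, and that of PTX+GCV against Control was -0.27 (SE 0.09, adjusted p = 0.329). Choroid plexus spots held 0.704% and 0.859% of the UMIs for PTX, 0.394% and 0.24% for PTX+GCV, 1.548% and 0.941% for the sections labelled PTX+ABT263, and 1.095% and 0.843% for Control. Without the 3 marker areas the difference of the sections labelled PTX+ABT263 was 0.55 (adjusted p = 0.00489) against PTX and 0.41 (adjusted p = 0.035) against Control, both of which passed, and that of PTX+GCV against Control was 0.03. The levels outside these areas were 25.9 and 27.2 CPM with PTX, 30.3 and 30.7 with PTX+GCV, 37.2 and 34.4 in those labelled PTX+ABT263, and 29.0 and 27.3 in Control.

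Igfbp5 and Igfbp3 had no difference that passed in whole sections. Igfbp5 was at 64.1 and 79.9 CPM for PTX, 83.7 and 71.2 for PTX+GCV, 59.6 and 59.0 for the sections labelled PTX+ABT263, and 70.2 and 56.5 for Control, with the sections labelled PTX+ABT263 below PTX and PTX+GCV and inside the Control range. Igfbp3 was at 7.9 and 7.45 CPM with PTX, 8.49 and 9.93 with PTX+GCV, 9.19 and 6.95 in those labelled PTX+ABT263, and 7.9 and 11.2 in Control. Its difference for PTX against Control was -0.40 (SE 0.17, adjusted p = 0.342), and PTX 1 and Control 1 were level.

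In the isocortex 14349 genes were tested, and 1 member was called in 1 of the 5 comparisons. The share of all genes called was 0.404% for PTX against Control, 0.0279% for PTX+GCV against PTX, 0.251% for the sections labelled PTX+ABT263 against PTX, 0% for PTX+GCV against Control and 0.335% for the sections labelled PTX+ABT263 against Control. Igfbp6 was at 145 and 163 CPM for PTX, 142 and 167 for PTX+GCV, 162 and 169.6 for the sections labelled PTX+ABT263, and 125 and 133 for Control. The Control sections were the lowest 2. Igfbp6 was higher in the sections labelled PTX+ABT263 than in Control by 0.49 (SE 0.10, adjusted p = 0.045), the member call. It was lost with total counts as the scale (0.36, adjusted p = 0.0658) and without PTX+ABT263 1 (0.56, adjusted p = 0.104), PTX+ABT263 2 (0.41, adjusted p = 0.356) or Control 1 (0.41, adjusted p = 0.222). The difference of PTX against Control was 0.25 (SE 0.10, adjusted p = 0.328). Within the isocortex, Igfbp6 was at 162 and 182 CPM with PTX, 163 and 196 with PTX+GCV, 169 and 194 in those labelled PTX+ABT263, and 138 and 149 in Control in the upper cluster, and at 127 and 146 CPM for PTX, 122 and 139 for PTX+GCV, 157 and 146 for the sections labelled PTX+ABT263, and 109.9 and 123 for Control in the deep cluster.

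Igfbp7 in the isocortex was at 38.6 and 37.3 CPM with PTX, 25.6 and 37.2 with PTX+GCV, 37.1 and 35.1 in those labelled PTX+ABT263, and 27.8 and 26.5 in Control. Both Control sections and PTX+GCV 1 were low, and the other 5 lay close together. The plain CPM means were 37.9 for PTX, 31.4 for PTX+GCV, 36.1 for the sections labelled PTX+ABT263 and 27.2 for Control. On the TMM scale they were 37.3, 29.9, 39.0 and 26.9 in the same order. The log2 difference was 0.47 (SE 0.13, adjusted p = 0.144) for PTX against Control, -0.29 (SE 0.12, adjusted p = 0.699) for PTX+GCV against PTX and 0.53 (SE 0.14, adjusted p = 0.111) for the sections labelled PTX+ABT263 against Control. Red cell genes in the isocortex were at 315 and 373 CPM with PTX, 46.6 and 82.4 with PTX+GCV, 275 and 14.7 in those labelled PTX+ABT263, and 205 and 119 in Control. Endothelial markers in the isocortex were at 377 and 384 CPM for PTX, 333 and 408 for PTX+GCV, 338 and 339 for the sections labelled PTX+ABT263, and 289 and 337 for Control. PTX+GCV 1, Control 1 and Control 2 were also the shallowest sections in the isocortex. Their medians there were 11128.5, 8568 and 14966 UMIs a spot, against 15412 to 24116.5 in the other 5. The part of depth or of these lists in the Igfbp7 level was not tested.

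Igfbp2 in the isocortex was at 32.8 and 37.5 CPM for PTX, 32.7 and 31.4 for PTX+GCV, 41.6 and 45.7 for the sections labelled PTX+ABT263, and 38.5 and 27.5 for Control. The sections labelled PTX+ABT263 were again the highest 2, with a log2 difference of 0.45 (SE 0.12, adjusted p = 0.144) against PTX and 0.55 (SE 0.13, adjusted p = 0.0853) against Control. Igfbp4 was at 123 and 121 CPM with PTX, 118 and 134 with PTX+GCV, 116 and 120.5 in those labelled PTX+ABT263, and 99.1 and 120 in Control. Control 1 stood below the other 7, and the difference of the sections labelled PTX+ABT263 from Control was 0.22 (SE 0.11, adjusted p = 0.387). Igfbp5 was at 43.6 to 68.8 and Igfbp3 at 4.17 to 8.29 over the 8 sections, with no call.

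**Figure D5:**
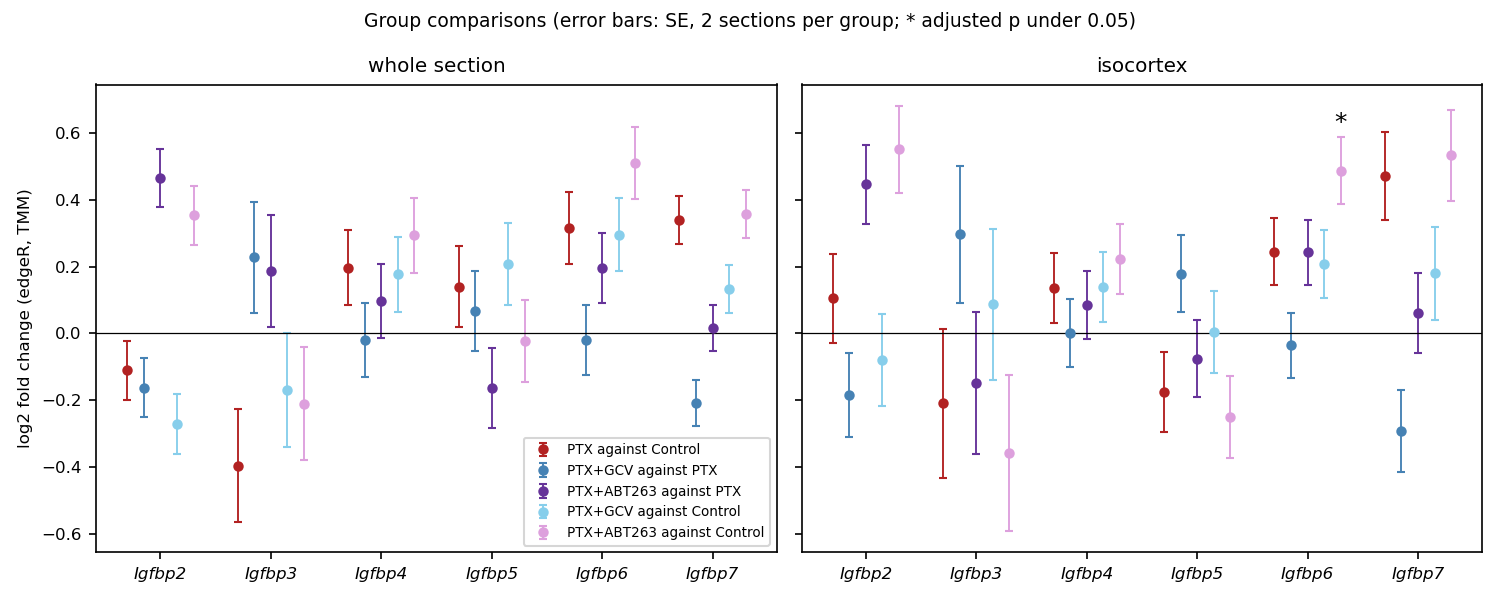
Log2 difference of each gene with bars of 1 SE for the 5 comparisons of groups in whole sections and in the isocortex. The star marks an adjusted p under 0.05, reached by Igfbp6 in the isocortex for the sections labelled PTX+ABT263 against Control (0.49).

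The thalamus cluster is described as chosen after its values were seen, with no test. Igfbp5 there was at 108 and 174 CPM for PTX, 100 and 113 for PTX+GCV, 85.0 and 79.7 for the sections labelled PTX+ABT263, and 70.7 and 59.3 for Control. Igfbp2 was at 33.7 and 24.3 CPM with PTX, 45.2 and 50.6 with PTX+GCV, 65.6 and 56.6 in those labelled PTX+ABT263, and 70.3 and 42.4 in Control. For Igfbp5 both PTX sections lay above both Control sections, and for Igfbp2 below them. The fine cluster led by Gbx2, where Igfbp5 is high, had 94 and 116 spots for PTX, 96 and 92 for PTX+GCV, 65 and 63 for the sections labelled PTX+ABT263, and 51 and 79 for Control. The thalamus cluster had 392 and 321, 468 and 489, 450 and 455, and 333 and 445 spots in the same order. The part of the fine cluster in these levels was not tested.

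In the meninges, choroid plexus and vessels no member passed in 3 comparisons, PTX against Control, PTX+GCV against PTX, and the sections labelled PTX+ABT263 against PTX. In that order 0.054%, 0.054% and 0.18% of all genes were called in the meninges, 0.276%, 0.0395% and 0.197% in the choroid plexus, and 1.02%, 0.125% and 2.82% in vessels. At an unadjusted p under 0.05 edgeR had 0 members in the meninges, where 6.17%, 5.76% and 7.38% of all genes passed, 0 in the choroid plexus, against 7.32%, 6.49% and 7.89%, and 3, 1 and 2 in vessels, against 9.53%, 3.92% and 15.4%. DESeq2 called 0 members in each, against 0%, 0% and 0% of all genes in the meninges, 0.0592%, 0% and 0.0197% in the choroid plexus and 0.0499%, 0% and 0.349% in vessels. With 12 to 46 spots a section in an area, small differences were not detectable at this depth. For Igfbp2 in the choroid plexus the log2 difference was 0.11 (SE 0.20, adjusted p = 0.953) for PTX against Control.

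In vessels Igfbp6 was at 96.2 and 74.9 CPM for PTX, 109 and 90.7 for PTX+GCV, 63.6 and 58.8 for the sections labelled PTX+ABT263, and 38.8 and 21.0 for Control, which in Control were 5 and 3 UMIs. The Control sections were the lowest 2. The difference of PTX from Control was 1.50 (SE 0.51, adjusted p = 0.2) for Igfbp6, 0.73 (SE 0.30, adjusted p = 0.354) for Igfbp2 and -0.74 (SE 0.34, adjusted p = 0.441) for Igfbp5. In these spots the fiber tract markers were at 5335 and 3679 CPM with PTX, 4354 and 4035 with PTX+GCV, 6897 and 7307 in those labelled PTX+ABT263, and 8190.2 and 6859 in Control, and the isocortex markers at 987 and 651 CPM for PTX, 698 and 813 for PTX+GCV, 497 and 535 for the sections labelled PTX+ABT263, and 606 and 434 for Control. Red cell genes were at 506 to 623 CPM in the vessel spots of PTX, against 11.3 to 70.1 in the other 6 sections. The part of these lists in the Igfbp6 level was not tested. The difference of the sections labelled PTX+ABT263 from PTX was 0.77 (SE 0.33, adjusted p = 0.233) for Igfbp5 and 0.65 (SE 0.27, adjusted p = 0.21) for Igfbp7, and that of PTX+GCV from PTX was -0.75 (SE 0.27, adjusted p = 0.875) for Igfbp2.

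Whether a group difference in an area departed from that in the isocortex was tested with limma on log2 differences within sections. No member passed in the 9 tests. The share of all genes called was 0%, 0.0181% and 0.0181% for the meninges, 0%, 0% and 0.02% for the choroid plexus and 0%, 0% and 0% for vessels, with the comparisons in the order above. At an unadjusted p under 0.05 3 differences were found for the 6 members over these 9 tests, while 5.49%, 3.21% and 5.06% of all genes passed in the meninges, 5.42%, 9.7% and 2.78% in the choroid plexus and 8.9%, 2.12% and 10.5% in vessels. The 3 were Igfbp3 in the meninges for PTX+GCV against PTX (-0.80), Igfbp6 in vessels for PTX against Control (1.01) and Igfbp5 in vessels for the sections labelled PTX+ABT263 against PTX (0.82). They are not read as results about the members. The meningeal Igfbp3 value rests on 2 and 3 UMIs in PTX+GCV and 7 and 6 in PTX, too few for the count filter. With edgeR the Igfbp3 difference in the meninges itself was -0.83 (SE 0.96, adjusted p = 0.974).

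The ligands, receptors and proteases around the family were read from a list of 22 genes. The ligand Igf2 was high in the areas of Igfbp2, with a log2 difference from the rest of 6.30 (SE 0.11) in the choroid plexus, 5.76 (SE 0.10, adjusted p = 3.26e-56) in the meninges and 4.45 (SE 0.13, adjusted p = 3.28e-267) in vessels, and -1.99 (SE 0.11, adjusted p = 2.43e-12) in the isocortex. The isocortex was set against a rest that held almost all spots of the marker areas, in which Igf2 is high. The ligand Igf1 differed by 1.05 (SE 0.36, adjusted p = 0.0146) in the meninges, -1.46 (SE 0.65, adjusted p = 0.0443) in the choroid plexus and -0.37 (SE 0.10, adjusted p = 0.00345) in the isocortex. Igf1r, the signalling receptor, differed by 0.82 (SE 0.17, adjusted p = 3.67e-06) in the choroid plexus and 0.13 (SE 0.04, adjusted p = 0.0088) in the isocortex. Igf2r, whose product clears IGF2, differed by 1.87 (SE 0.23, adjusted p = 2.65e-15) in the choroid plexus and 0.76 (SE 0.29, adjusted p = 0.0293) in the meninges.

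Of the 22 genes 7 were called higher and 1 lower in the meninges, 9 and 3 in the choroid plexus, 3 and 1 in vessels, and 3 and 14 in the isocortex. Only the isocortex rest held the marker areas, so its lower calls apply to that rest and its counts are not like those of the other areas. Over all genes tested the shares called higher and lower were 17.9% and 20% in the meninges, 24.2% and 32.9% in the choroid plexus, 9.4% and 9.84% in vessels, and 32.8% and 33% in the isocortex. Besides those above, Esm1, Grb14, Igfbpl1, Ins2, Insr and Irs1 were higher and Htra1 and Irs4 lower in the choroid plexus. In the meninges Esm1, Htra1, Htra3 and Ins2 were higher and Irs2 lower, and in vessels Htra1 and Htra3 were higher and Stc1, with no UMI there, lower. In the isocortex Irs1 and Kazald1 were higher, and Esm1, Grb10, Grb14, Htra3, Igfbp1, Igfbpl1, Ins2, Irs2, Irs4, Pappa, Pappa2 and Stc1 were lower. Pappa encodes the protease that cuts IGFBP4. Of these 41 area calls, 14 were lost or turned under at least 1 alternative. Among them were Igf1 in the meninges (lost without PTX 1 or PTX+ABT263 2), Igf1 in the choroid plexus (lost on leaving out any 1 section but PTX 2 and PTX+ABT263 1) and Igf2r in the meninges (lost without PTX+GCV 1, PTX+ABT263 2 or Control 2).

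Between groups 0 of the 22 genes passed in whole sections or in the isocortex with edgeR, and 3, 5, 5, 6 and 3 of them had an unadjusted p under 0.05 in whole sections, beside the shares of all genes given above. In the isocortex 1, 4, 2, 1 and 2 did, against 12.6%, 6.77%, 11.1%, 8.13% and 12.9% of all genes. In vessels 2 of 19 tested passed, both for the sections labelled PTX+ABT263 against PTX. Igf2 rose by 0.90 (SE 0.23, adjusted p = 0.0203), to 548 TMM-scaled CPM against 291 in PTX. Htra1, which encodes a secreted protease that cuts IGF-binding proteins, rose by 0.91 (SE 0.26, adjusted p = 0.0343), to 392 against 209 in PTX. Neither call held with DESeq2 (adjusted p = 0.156 for Igf2 and 0.201 for Htra1) or with total counts as the scale, nor with no filter on low counts, and at a limit of 20 marker UMIs per 10000 the difference was 0.40, adjusted p = 0.859 for Igf2 and 0.41, adjusted p = 0.892 for Htra1. Both were also lost at a limit of 5 (0.75, adjusted p = 0.138 for Igf2 and 0.66, adjusted p = 0.165 for Htra1). The call of Igf2 was also lost without PTX 2 (0.69, adjusted p = 0.234) or PTX+ABT263 2 (0.78, adjusted p = 0.15), and that of Htra1 without PTX 1 (0.84, adjusted p = 0.277), PTX 2 (0.94, adjusted p = 0.115) or PTX+ABT263 1 (0.74, adjusted p = 0.357). Meningeal markers in the vessel spots were at 962 and 1016 CPM with PTX, 956 and 864 with PTX+GCV, 1266 and 1182 in those labelled PTX+ABT263, and 1382 and 778 in Control. Choroid plexus markers there were at 42.8 and 32.8 CPM with PTX, 28.6 and 45.3 with PTX+GCV, 364 and 58.8 in those labelled PTX+ABT263, and 69.9 and 21.0 in Control, and pericyte markers at 495 and 384 CPM with PTX, 383 and 445 with PTX+GCV, 607 and 646 in those labelled PTX+ABT263, and 536 and 357 in Control. Both lists were higher in each section labelled PTX+ABT263 than in each PTX section, as were the microglial (653 to 659 against 388 to 477) and ependymal markers (84.9 to 98.3 against 46.8 to 53.5), and their part in the Igf2 and Htra1 differences was not tested. Without the spots past the meningeal limit, the call of Igf2 was lost (1.04, adjusted p = 0.172) and that of Htra1 held (1.27).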

How the data were processed

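Per the labels, the authors captured polyadenylated RNA of 8 coronal sections on Visium slides and deposited UMI counts per gene and spot. The submitters' processing notes name Space Ranger 1.2.1, mm10 and Seurat 4.0. Spots with at least 200 genes and at most 30% mitochondrial UMIs were kept. Spots were clustered with Seurat 5.3.0 in R 4.3.3 (SCTransform, integration, 2000 features without the Igfbp genes, 20 components, resolution 0.15, or 0.8 for fine clusters). A cluster was named where 1 marker list led among its top genes and at least 5 of its markers were at 1.5 times the other spots. That minimum was raised after the clusters were seen, which left the cluster led by Ucn3 unnamed. UMIs were summed per section and area. Groups, and areas against the rest with section as a block, were tested with edgeR 4.0.16 (quasi-likelihood, TMM, genes with low counts left out except the named lists, all groups in 1 fit), with DESeq2 1.42.0 as an alternative, and area by group differences with limma 3.58.1 (prior count 2). Called means a Benjamini-Hochberg adjusted p under 0.05 over all genes tested. SEs were derived from the fold change and its F statistic. The tests were tested on simulated data, drawn with 1 spread for all genes and log2 changes of 1 or 2. That does not measure how well smaller differences, or genes of another spread, are detected. Named genes were all 6 members, IGF axis genes past the threshold with both ligands and receptors, and the 3 genes most like each member. The members and lists were chosen with earlier results of these data known.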

Additional observations from a re-analysis of the deposited data

How the results depend on the processing

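The 2 sections of a group, and 12 to 33 choroid plexus spots a section, limit what could be detected. Numbers of Igfbp genes called in whole sections were 2 for PTX against Control with no filter on low counts (main 0), 1 for PTX+ABT263 against PTX with DESeq2, with no filter or without the 3 marker areas (main 0; 0 to 1 on leaving out a section, 1 without PTX+ABT263 2), 1 for PTX+GCV against Control with no filter (main 0), and 1 for PTX+ABT263 against Control with DESeq2, with only the 2 groups in the fit or without the marker areas, and 4 with no filter (main 0; 0 to 1 on leaving out a section, 1 without PTX+GCV 1 or PTX+GCV 2). In the isocortex they were 1 for PTX against Control with no filter, 1 for PTX+ABT263 against PTX with no filter or only 2 groups (main 0 in both), and, for PTX+ABT263 against Control (main 1), 0 with total counts, only 2 groups or resolution 0.3, 3 with no filter and 0 to 2 on leaving out a section. Igfbp6 in that last comparison was at 0.36 with total counts, 0.49 with only 2 groups and 0.49 at resolution 0.3, none of which passed, and 0.41 to 0.57 on leaving out a section. With the replicate block it was at 0.49 (adjusted p = 0.0192), and no call of a member changed. Same-numbered sections did not deviate together over genes (correlations -0.115 to 0.0662). That gives no sign of pairing by number but cannot exclude it. Igfbp3 in the meninges against the rest was at 0.67 with total counts, 0.72 with no filter, 1.12 with double the marker limit and 0.76 without the sections labelled PTX+ABT263, where its call was lost, and 0.65 to 0.89 on leaving out a section. Igfbp6 in the meninges was at 0.19 with a limit of 5 and Igfbp5 in the choroid plexus at 0.21 with a limit of 20. In vessels, 2 members were called higher without meningeal spots (main 4), where Igfbp5 was at 0.42 and Igfbp4 at 0.07, and 1 was called lower with a limit of 5 (main 0). The sign turned for Igfbp6 in vessels against the rest (-0.03 with no filter, -0.49 with a limit of 5, -0.20 without meningeal spots, -0.10 to 0.08 on leaving out a section), for Igfbp2 in whole sections of PTX+GCV against Control without the marker areas (0.03), and for Igfbp5 in vessels of PTX against Control with a limit of 5 (0.00). Igfbp7 in the isocortex against the rest was at -0.17 to -0.09 on leaving out a section. The causes were not tested. Other spots or sections change the tissue compared, and no filter adds genes both to the test and to the fit of the spread. Over all genes, calls for PTX against Control numbered 22 in whole sections and 58 in the isocortex, against 152 and 108 with DESeq2 and 874 and 374 with no filter. Over the alternatives run, calls in whole sections ranged from 0 to 547 for PTX+GCV against PTX (main 4), 12 to 712 for PTX+ABT263 against PTX (main 23), 0 to 533 for PTX+GCV against Control (main 0) and 15 to 498 for PTX+ABT263 against Control (main 33). In the isocortex they ranged from 12 to 321 for PTX+ABT263 against PTX (main 36) and 18 to 361 for PTX+ABT263 against Control (main 48). In vessels they ranged from 2 to 58 for PTX against Control (main 41) and 2 to 164 for PTX+ABT263 against PTX (main 113). Since calls over all genes moved this widely, counts of members under an alternative are not read as results about the members. With total counts as the scale the median log2 difference of all genes moved to -0.11, -0.13, -0.18 and -0.21 for PTX+ABT263 against PTX in whole sections, the isocortex, meninges and vessels, -0.13 for PTX+ABT263 against Control in the isocortex, and -0.19 and -0.43 for the meninges and choroid plexus against the rest. The split of higher against lower calls then became 27 to 95 for PTX+ABT263 against PTX in whole sections (main 14 to 9), 18 to 123 in the isocortex (16 to 20) and 25 to 112 in vessels (68 to 45), 18 to 27 for PTX+ABT263 against Control in whole sections (17 to 16) and 16 to 224 in the isocortex (18 to 30), and 2703 to 5959 for the choroid plexus against the rest (3379 to 4606). Of the IGF axis genes, Ins2 in the meninges turned to -4.05 with double the marker limit. The isocortex with all spots under tissue was not run, because spots left out were not clustered. The vessel and labelled section alternatives were chosen after seeing the data.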
